A study of Mus musculus with 6 samples.

Results

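The 8 genes Casp2, Casp6, Casp8, Casp9, Fadd, Cflar, Apaf1 and Xiap were taken by their symbols from the count tables of sorted mouse DN3 thymocytes. All 8 were among the 24015 symbols listed, and all 8 were among the 12939 with enough counts to be tested. They were read in 6 libraries, 2 for each of 3 groups. DN3 cells are early T cell precursors that carry little CD44, much CD25 and neither CD4 nor CD8, and they are the cells in which the T cell receptor beta locus is rearranged. Control cells came from wild-type mice. The second group came from p45-/- mice, which lack the long (p45) isoforms of Tcf1, the transcription factor encoded by Tcf7, and keep the short ones. The third group came from Lck-cre+ Tcf1 fl/fl mice, in which Cre driven from Lck, a gene active in T-lineage cells, is used to delete a floxed part of the Tcf1 gene. No agent was given. The labels name neither age nor strain, nor a control that carries Lck-cre alone, so an effect of Cre itself and one of the Tcf1 deletion cannot be told apart in the third group.

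Caspases are proteases that are made as inactive precursors and take a cell apart once they are activated. In the receptor route a death receptor such as Fas binds the adaptor FADD, which gathers caspase-8. The product of Cflar, called FLIP, is a caspase-8 relative without protease activity that binds at the same place and restrains it. In the mitochondrial route cytochrome c released from mitochondria binds APAF1, and the resulting apoptosome activates caspase-9. Both routes end in the executioner caspases, while XIAP binds and blocks caspase-9 and some of the executioners. In the thymus, cells that fail to make a working receptor chain or make a harmful receptor are removed by apoptosis.

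Library totals ran from 19640524 to 28107031 counts. The 8 genes had between 259 counts (Casp9) and 4842 counts (Casp2) in a library, so that counting error alone was at most 6.21% of a value. Levels are in CPM, counts scaled to a common library size with TMM factors. As a check of the labels, Tcf7 stood at 1949 ± 196 CPM in control, 2377 ± 52.4 CPM in p45-deficient and 978 ± 2.30 CPM in Tcf1-deficient libraries (mean ± SD, n = 2 each). In Tcf1-deficient libraries it was thus 1.99-fold lower than in control and did not pass (edgeR adjusted p = 0.0762), so about 0.502 of the control level remained. By p it had rank 3 among the 12939 tested genes, none of which passed in that comparison. Under 7 other processing settings Tcf7 was called lower in 2, with log2 fold changes between −1.05 and −0.99. With a single library left out its log2 fold change lay between −1.10 and −0.89. Against p45-deficient libraries Tcf7 was called lower, 2.43-fold (edgeR adjusted p = 0.00310). Its counts cover the whole gene, and separate neither the isoforms nor deleted from intact transcripts. The DN3 genes Il2ra (CD25), Ptcra, Rag1, Rag2, Cd3e and Dntt were present in all 6 libraries and summed to 3256 to 5571 CPM. Tcf1-deficient replicate 1 stood apart. It had the lowest of these sums (3256 CPM, against 5376 CPM in replicate 2), and genes of double-positive or mature T cells summed to 703 CPM in it and to 95.9 CPM in replicate 2, with Cd4 at 372 and 46.1 CPM. Reads on Rn45s, a ribosomal RNA precursor, made up 0.482% and 1.24% of control libraries, 1.43% and 1.505% of p45-deficient libraries and 2.52% and 1.22% of Tcf1-deficient libraries. It was thus higher in both p45-deficient libraries than in both controls and highest in Tcf1-deficient replicate 1, and its part in the results was not tested. Whether the pair of libraries in a group stems from different mice is not in the labels, and p-values therefore measure a spread that may be technical. In sorted bulk cells a change in the share of a cell type and a change in RNA per cell cannot be told apart.

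Levels of different genes can be compared only per length, here as CPM per kilobase of annotated exon sequence. In control cells Casp2, an ancient caspase of the DNA damage and mitotic stress response, was the most abundant of the 8 at 47.8 ± 1.05 CPM per kilobase. Casp6, an executioner caspase known for cutting lamins, followed at 36.5 ± 7.60, and Casp8 was the third at 22.6 ± 2.65. Xiap (11.5 ± 0.845) and Cflar (11.3 ± 1.88) came next, and their libraries overlapped. Apaf1 stood at 7.27 ± 0.654, Fadd at 4.22 ± 0.981 and Casp9 at 3.11 ± 0.177 CPM per kilobase. Xiap and Cflar were the only neighbours in this order whose control libraries overlapped. In p45-deficient cells Casp8 stood above Casp6, at 43.1 ± 2.65 against 33.9 ± 0.502 CPM per kilobase, with no overlap. In Tcf1-deficient cells Casp2 (42.0 ± 6.98), Casp6 (37.7 ± 8.59) and Casp8 (34.2 ± 6.91) overlapped. Within each library Casp2 lay above Casp6, at 37.1 against 31.6 in replicate 1 and 47.0 against 43.7 in replicate 2. Casp8 lay above both in replicate 1 (39.1) and below both in replicate 2 (29.3), so no place could be given for it.

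How DN3 cells differ when the long Tcf1 isoforms are missing was read from p45-deficient against control libraries. Of the 8 genes, Casp8 rose and the other 7 did not pass the test. This is 1 of 8 called, where 16% of all tested genes were called, 8.47% higher and 7.55% lower. That is 1096 genes higher and 977 lower, and scaling by library totals made it 721 higher and 1281 lower. Both p45-deficient libraries lay above both controls for 6 of the 8 genes, namely Casp8, Fadd, Casp9, Apaf1, Casp2 and Xiap. None of the 8 had both p45-deficient libraries below both controls. Over all tested genes the shares were 37.9% above and 31.3% below. The median log2 fold change was 0.33 over the 8 genes and 0.05 over all genes. Scaling by library totals moved the median of all genes to −0.06, and with it Cflar and Casp2 changed sign, to log2 fold changes of −0.04 and −0.02.

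**Figure D1:**
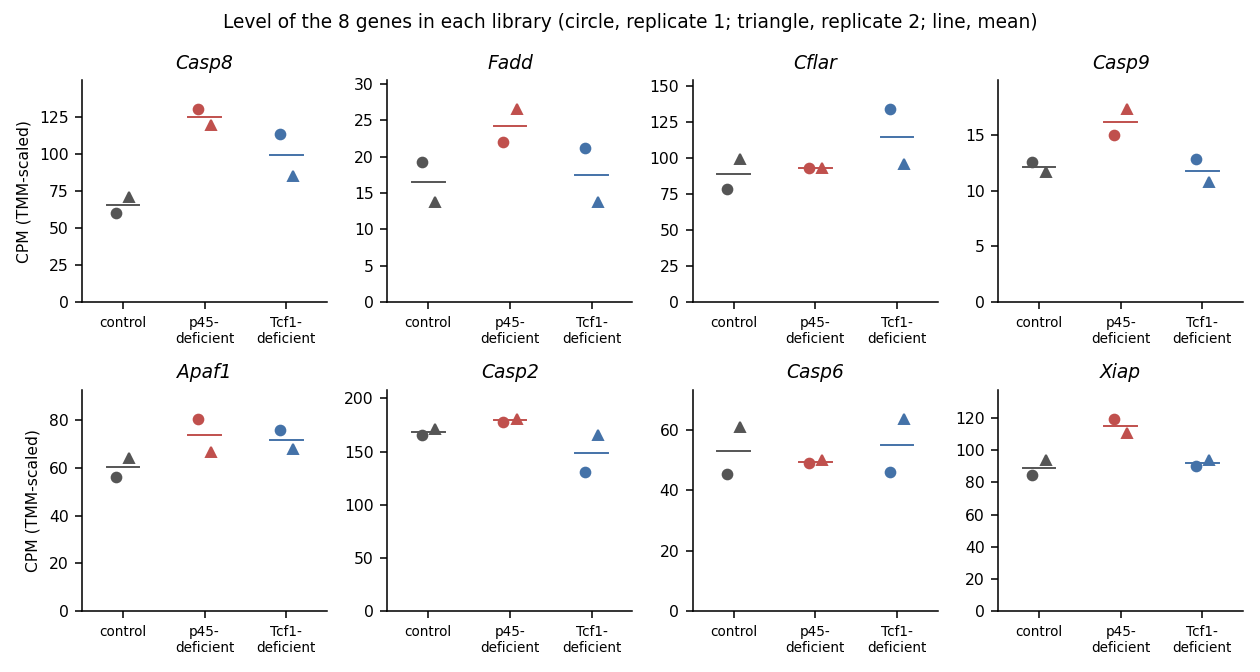
Each panel plots 1 gene, with its level in CPM (TMM-scaled) on the vertical axis, starting at 0, and the 3 groups on the horizontal axis. Circles are replicate 1, triangles replicate 2 and lines the mean. Casp8 is the gene with the widest gap between control and p45-deficient libraries, while Fadd has the widest gap between replicates in control (1.39-fold) and Tcf1-deficient cells (1.53-fold).

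In the receptor route, Casp8, the initiator protease, stood at 59.8 and 70.7 CPM in control, at 130.0 and 119 CPM in p45-deficient and at 113 and 84.9 CPM in Tcf1-deficient libraries. All 4 mutant libraries lay above both controls, and the p45-deficient libraries were the highest. Against control, Casp8 rose 1.91-fold in p45-deficient cells (log2 fold change 0.93, SE 0.17, 95% interval 0.54 to 1.33, edgeR quasi-likelihood test, adjusted p = 0.0142). The call was lost when 1 library of either group was left out, with an adjusted p of 0.119 without the first and 0.0622 without the other control library, and of 0.112 without p45-deficient replicate 1 and 0.0700 without replicate 2. The log2 fold change then lay between 0.77 and 1.00. The call was kept by DESeq2 (adjusted p = 5.66e-05), under each other scaling, with no filter, with the replicate block and in the fit of these 2 groups alone.

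**Figure D2:**
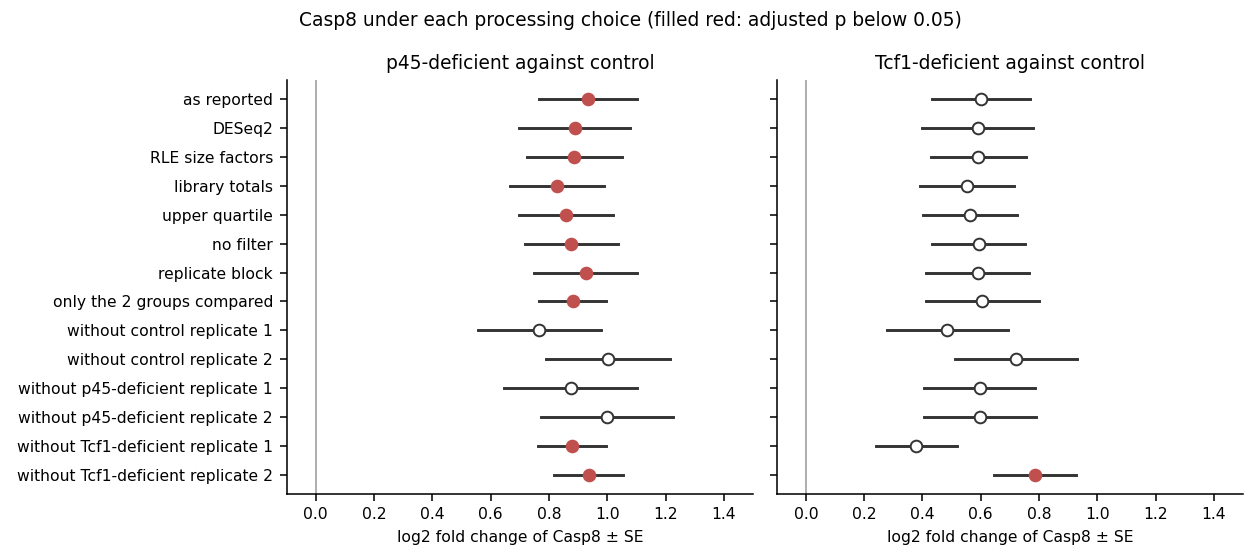
Log2 fold change of Casp8 (horizontal axis, point with 1 SE on each side) under each processing choice (vertical axis), for p45-deficient against control on the left and Tcf1-deficient against control on the right. Filled red points have an adjusted p below 0.05. Values stay between 0.77 and 1.00 on the left, and between 0.38 and 0.78 on the right, where the fit without Tcf1-deficient replicate 2 is the only one called.

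Fadd, the adaptor that joins receptor and caspase-8, had 19.2 and 13.8 CPM in control, 21.9 and 26.5 CPM in p45-deficient and 21.1 and 13.8 CPM in Tcf1-deficient libraries. The p45-deficient libraries were the highest, but control replicates differed 1.39-fold and Tcf1-deficient replicates 1.53-fold, the widest replicate gaps of the 8 genes in both groups. The log2 fold change against control was 0.56 (SE 0.26, 95% interval −0.06 to 1.18, adjusted p = 0.187). Cflar, the gene of the inhibitor FLIP, had 78.3 and 99.2 CPM in control and 93.1 CPM in each p45-deficient library. The p45-deficient values lay within the range of the controls (log2 fold change 0.07, 95% interval −0.37 to 0.51, adjusted p = 0.833). That interval spans fold changes from 0.774 to 1.42 times the control level.

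Casp8 and Cflar lie close together on chromosome 1, and the ratio of their counts in a library does not depend on how the library is scaled. Control libraries held 0.764 and 0.712 Casp8 counts per Cflar count, p45-deficient libraries 1.40 and 1.28, and Tcf1-deficient libraries 0.846 and 0.887. The 3 groups did not overlap, and the p45-deficient pair was the highest. The means were 0.738 ± 0.0367 for control, 1.34 ± 0.0820 for p45-deficient and 0.867 ± 0.0286 for Tcf1-deficient cells (SD, n = 2 each). With 2 libraries against 2, an exact permutation test cannot go below p = 0.333, so the ratio was not tested. The ratio of Casp8 to Fadd counts overlapped between control (3.12 and 5.13) and p45-deficient libraries (5.93 and 4.50). In both Tcf1-deficient libraries (5.35 and 6.14) it lay above both controls. How often ratios of other gene pairs separate the groups was not tested.

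**Figure D3:**
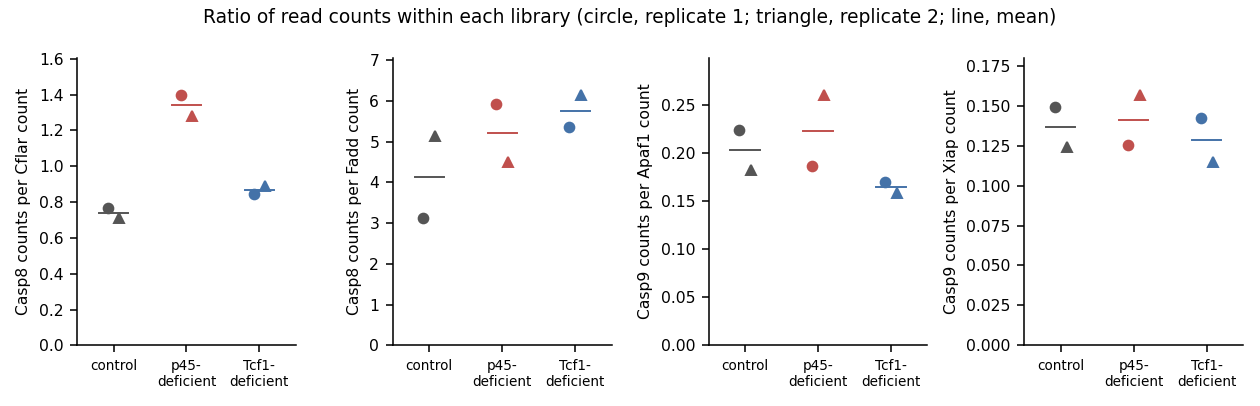
Ratios of read counts within a library (vertical axes, no unit, starting at 0) in the 3 groups, with circles for replicate 1, triangles for replicate 2 and lines for the mean. Casp8 per Cflar separates the p45-deficient libraries (1.28 to 1.40) from control (0.712 to 0.764), and the other 3 ratios, of Casp8 to Fadd, Casp9 to Apaf1 and Casp9 to Xiap, do not. The Tcf1-deficient libraries lie apart from control for Casp8 per Cflar, Casp8 per Fadd and Casp9 per Apaf1.

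The promoters were read from RefSeq (GRCm38.p6) as windows of 300 bases, 250 before and 50 after an annotated start. All 8 genes had a window, and Xiap had 3, which makes 10 windows. They differed widely in CpG content. Casp8 had 5 CpG dinucleotides and 42% G and C, and Cflar 12 and 45%, whereas Apaf1 had 46 and 74.7%, Casp9 28, Casp2 26, Fadd 22 and Casp6 16. The 3 windows of Xiap had 5, 20 and 2 CpG, so that one equalled Casp8 and another was lower. The median over 32841 windows of all genes was 7 CpG, 43.6% of windows had 5 or fewer, and 1.65% had 46 or more. The windows of Casp8, the gene that passed the test, and Apaf1, the member whose levels ran most closely with it (Pearson r = 0.871 over the 6 libraries), are shown for this contrast, each 5′ to 3′ along the gene with CpG in capitals. The annotated Casp8 gene begins upstream of its window, so other starts are not covered.

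Casp8, chr1:58802252-58802551, plus strand: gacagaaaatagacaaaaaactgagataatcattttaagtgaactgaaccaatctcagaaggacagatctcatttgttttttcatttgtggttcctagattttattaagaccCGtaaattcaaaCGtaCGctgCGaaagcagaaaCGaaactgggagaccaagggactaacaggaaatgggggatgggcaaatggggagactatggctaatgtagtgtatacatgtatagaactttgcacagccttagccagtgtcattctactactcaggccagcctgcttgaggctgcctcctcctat

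Apaf1, chr10:91082694-91082993, minus strand: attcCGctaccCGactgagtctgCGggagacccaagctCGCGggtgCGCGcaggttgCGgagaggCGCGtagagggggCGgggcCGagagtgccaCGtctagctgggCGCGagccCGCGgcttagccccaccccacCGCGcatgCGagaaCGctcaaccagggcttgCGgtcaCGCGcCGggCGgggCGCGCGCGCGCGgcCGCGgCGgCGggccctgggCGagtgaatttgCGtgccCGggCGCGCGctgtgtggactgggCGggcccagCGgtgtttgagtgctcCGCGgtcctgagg

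The core letters of the TCF and LEF binding motif, CTTTGA, were searched on both strands. They occurred in the window of Fadd and in 1 of the 3 of Xiap, and in 16.0% of all windows. The windows of Casp8, Cflar, Casp9, Apaf1, Casp2 and Casp6 did not hold these letters. E2F motif letters, TTTCGCGC or TTTGGCGC on either strand, occurred in none of the 10 and in 0.813% of all windows. A match of letters is a description and not a binding site. The stretch of the Fadd window (chr7:144582392-144582691, minus strand) with its match in capitals, which reads the motif on the opposite strand, is shown because Fadd is the receptor adaptor.

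Fadd: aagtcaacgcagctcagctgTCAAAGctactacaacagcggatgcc

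In the mitochondrial route, Casp9, the initiator caspase of the apoptosome, had 12.6 and 11.6 CPM in control, 15.0 and 17.3 CPM in p45-deficient and 12.8 and 10.8 CPM in Tcf1-deficient libraries. The p45-deficient pair lay above the other 4 libraries, but the difference from control did not pass (log2 fold change 0.41, SE 0.20, adjusted p = 0.198). Apaf1, the scaffold of the apoptosome, had 56.3 and 64.0 CPM in control, 80.5 and 66.5 CPM in p45-deficient and 75.6 and 67.9 CPM in Tcf1-deficient libraries. Both groups of mutant libraries lay above both controls, and they overlapped each other. Against control the log2 fold change of Apaf1 was 0.29 (SE 0.15, adjusted p = 0.206). The ratio of Casp9 to Apaf1 counts, 0.224 and 0.182 in control, overlapped that of p45-deficient cells, 0.186 and 0.260. So did the ratio of Casp9 to Xiap counts (control 0.1495 and 0.124, p45-deficient 0.1255 and 0.157). In Tcf1-deficient libraries Casp9 per Apaf1 (0.170 and 0.159) lay below both controls, while Casp9 per Xiap (0.143 and 0.1145) overlapped them.

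Xiap, the direct caspase inhibitor, had 84.4 and 93.7 CPM in control, 119.5 and 111 CPM in p45-deficient and 90.0 and 94.1 CPM in Tcf1-deficient libraries. Tcf1-deficient values lay near the controls and below both p45-deficient libraries. Against control the log2 fold change in p45-deficient cells was 0.37 (SE 0.12, 95% interval 0.09 to 0.65), with an unadjusted p of 0.0154, where 33.8% of all tested genes were under 0.05, and an adjusted p of 0.0724. It passed only in the fit without Tcf1-deficient replicate 2 (log2 fold change 0.37, adjusted p = 0.0330), and its adjusted p reached 0.395 when other libraries were left out. The initiator-like Casp2 was the steadiest of the 8 between replicates of the control group, with 166 and 171 CPM there, 178 and 181 CPM in p45-deficient and 131 and 166 CPM in Tcf1-deficient libraries. Its log2 fold change between p45-deficient and control cells was 0.09, less than 1 SE (0.14, adjusted p = 0.689). The executioner gene Casp6 had 45.3 and 61.0 CPM in control, 48.8 and 49.9 CPM in p45-deficient and 46.0 and 63.7 CPM in Tcf1-deficient libraries. Its p45-deficient values lay inside the range of the controls (log2 fold change −0.11, SE 0.20, adjusted p = 0.748).

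**Figure D4:**
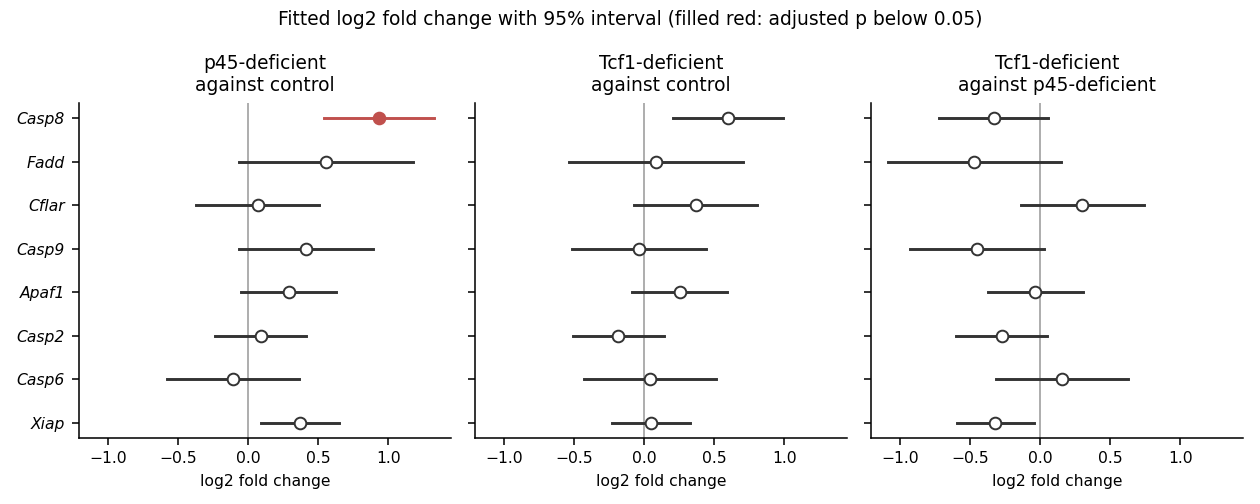
Fitted log2 fold changes (horizontal axis) of the 8 genes with 95% intervals, 1 panel for each comparison. The filled red point has an adjusted p below 0.05, which only Casp8 reached in p45-deficient against control cells (0.93, interval 0.54 to 1.33). The interval of Xiap (0.09 to 0.65) also lies above 0 there but its adjusted p was 0.0724.

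The other genes of the pathway were read from 6 lists with 72 genes, of which 68 were tested. In p45-deficient cells 7 of them rose and 4 fell, and their median log2 fold change was 0.06. That is 16.2% called, against 16% of all tested genes with a median of 0.05, so the lists as a whole were at the level of all genes. Of 2 other caspases tested, Casp1, which matures interleukin-1 beta and is not an apoptotic caspase, fell 3.36-fold, from 7.44 and 8.51 CPM to 2.54 and 2.20 CPM (log2 fold change −1.75, SE 0.30, adjusted p = 0.0117). Casp4, an inflammatory caspase that senses bacterial lipopolysaccharide, was under 1 CPM in these 4 libraries and did not pass (adjusted p = 0.409).

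Among 14 death receptors and ligands tested, 1 fell and none rose. Tnfrsf1a, the first TNF receptor, fell 1.49-fold, from 46.5 and 43.6 CPM to 31.4 and 29.2 CPM (adjusted p = 0.0438). Fas, the receptor that uses FADD directly, was low throughout, with 3.96 and 5.23 CPM in control and 8.27 and 7.42 CPM in p45-deficient libraries. Those libraries did not overlap, but Fas did not pass (log2 fold change 0.77, SE 0.44, adjusted p = 0.258). Of 21 receptor adaptors and regulators, 2 rose and 1 fell. Faim, an inhibitor of Fas-induced death, rose 1.75-fold and Faf1, a FAS-binding factor, 1.40-fold, while Dedd2, which has a death effector domain, fell 1.66-fold from 61.4 and 77.0 CPM to 40.9 and 42.7 CPM.

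Of 10 genes of the mitochondrial step, 2 rose and none fell. Bid, which caspase-8 cuts to connect the receptor route with mitochondria, had 41.7 and 33.7 CPM in control and rose 2.13-fold to 71.4 and 89.0 CPM. Cycs, the gene of cytochrome c, had 139 and 159 CPM in control and rose 1.61-fold to 239.6 and 240.4 CPM. Of 9 IAP family genes tested, Birc5 (survivin, also a mitotic protein) rose 2.37-fold and Birc6 fell 1.37-fold. Naip5 was called higher as well, from 0.919 and 0.496 CPM to 9.04 and 2.30 CPM, but Naip genes are near-identical copies whose reads may not be separated. Without p45-deficient replicate 1 its log2 fold change was 1.71 in place of 3.01, and it was not called. Of 12 caspase substrates tested, Lmnb1, a nuclear lamina gene, rose 1.44-fold and none fell.

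**Figure D5:**
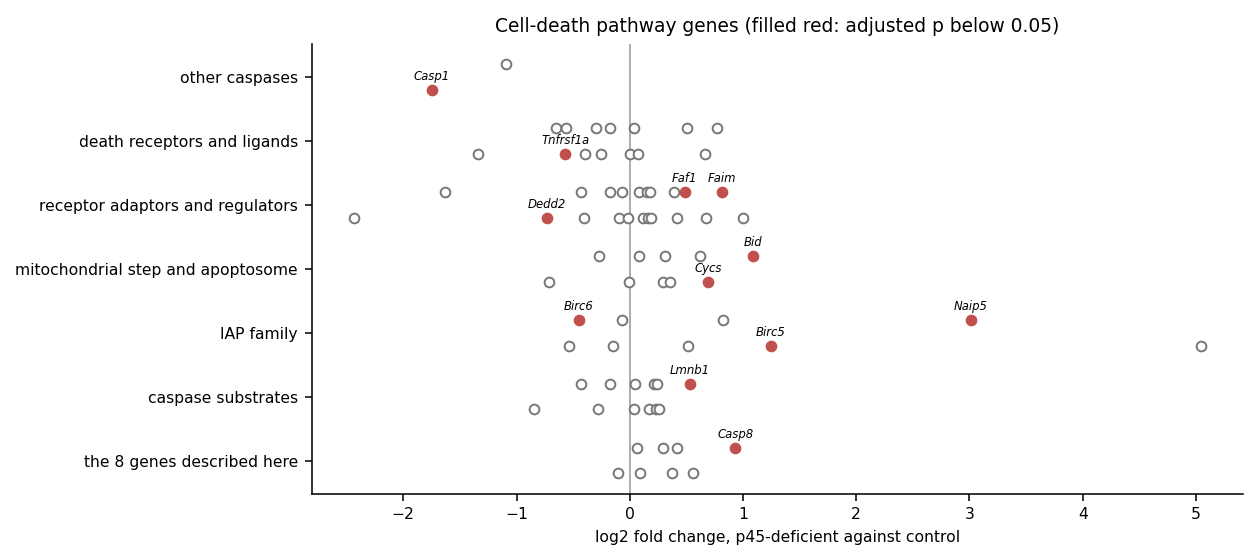
Log2 fold change in p45-deficient against control cells (horizontal axis) of each tested gene, by list (vertical axis, points set on 2 levels only to separate them). Filled red points have an adjusted p below 0.05 and carry their gene name. Called genes lie on both sides of 0, with Casp8 (0.93) as the only called gene among the 8.

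Most of these calls were lost when a control or p45-deficient library was left out. Such a fit keeps 1 library in that group, and fewer of all tested genes were called in it too. Each called list gene kept the sign of its log2 fold change in these fits. Birc5 was called in each of the 6 fits with a library left out, Bid in 4, Dedd2 and Naip5 in 3, and Casp1, Tnfrsf1a, Faf1, Faim, Cycs, Birc6 and Lmnb1 in 2. Of the 7 other settings, Faf1 was called in 4, Lmnb1 in 5, Tnfrsf1a and Birc6 in 6 and the other called genes in 7. Without control replicate 1 the number of list genes called was 4, without control replicate 2 it was 1, and without either p45-deficient library 2. It was 17 without Tcf1-deficient replicate 1 and 19 without replicate 2. Scaling by library totals gave 5 higher and 7 lower, and by the upper quartile 6 higher and 6 lower.

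Markers of other states and cell types were read in this comparison too. Of 8 genes of dividing cells, 5 were called higher, and they summed to 2470 and 2159 CPM in control, 3912.5 and 4139.5 CPM in p45-deficient and 2056 and 2725 CPM in Tcf1-deficient libraries. Of 9 genes that react to cell handling, such as Fos and Hspa1a, 1 was called lower. They summed to 461 and 2883.5 CPM in control, 289 and 281 CPM in p45-deficient and 2126.5 and 3022 CPM in Tcf1-deficient libraries. Dendritic cell genes summed to 103 and 42.9 CPM in control and 22.3 and 22.4 CPM in p45-deficient libraries, with 0 of 5 tested called. B cell genes summed to 35.4 and 28.2 CPM in control and 16.1 and 13.5 CPM in p45-deficient libraries, with 1 of 3 tested called, lower. Myeloid genes summed to 13.1 and 11.1 CPM in control and 6.43 and 8.23 CPM in p45-deficient libraries, with 0 of 3 tested called. Of these 3, 2 had a positive log2 fold change, and the lower sums came mainly from Lyz2. It had 8.02 and 9.08 CPM in control and 1.84 and 5.17 CPM in p45-deficient libraries. Genes of double-positive or mature T cells summed to 223 and 183 CPM in control and 315 and 282 CPM in p45-deficient libraries, with 0 of 6 called. Among them Cd8b1 had 48.7 and 22.9 CPM in control and 89.7 and 77.5 CPM in p45-deficient libraries. The sums of these 4 cell types did not overlap between control and p45-deficient libraries, and nor did the thymic stroma and erythroid sums. Of all tested genes, 37.9% had both p45-deficient libraries above both controls and 31.3% below. Natural killer genes summed to between 22.9 and 39.7 CPM in these 4 libraries and overlapped, with none called. Thymic stroma genes summed to 67.2 and 72.9 CPM in control, 81.3 and 93.1 CPM in p45-deficient and 66.0 and 113 CPM in Tcf1-deficient libraries. Nearly all of this was Epcam, with 65.8 and 71.4 CPM in control. Krt5, Foxn1 and Pdgfra were under 1 CPM in every library. In the erythroid list the globin genes Hbb-b1 and Hba-a1 had 0 counts in every library. The part of these cells and states in the change of Casp8, Bid or Birc5 was not tested.

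The comparison of Tcf1-deficient with control cells asks how DN3 cells labelled as lacking Tcf1 differ, with the remaining Tcf7 counts given above. None of the 8 genes and none of the 68 list genes was called, where 0% of all tested genes were called by edgeR. At an unadjusted p under 0.05 stood 1024 genes, 1 of the 8 among them. DESeq2 called 145 genes, none of the 8. Casp8 was the member with the unadjusted p of 0.00832. It lay above both controls in both libraries (1.52-fold, log2 fold change 0.60, SE 0.17, 95% interval 0.21 to 0.99, adjusted p = 0.563). Both Tcf1-deficient libraries were above both controls for Casp8 and Apaf1, 2 of 8, and below for Casp2, 1 of 8, against 16.4% and 18% of all tested genes.

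The 2 Tcf1-deficient libraries differed from each other more than the pairs of the other groups. The higher over the lower replicate was 1.30 at the median of the 8 genes, with a range of 1.05 to 1.53, against 1.16 in control and 1.09 in p45-deficient cells. Cflar had 134 CPM in replicate 1, the highest of the 6 libraries, and 95.7 CPM in replicate 2, which lay between the controls (log2 fold change 0.37, SE 0.19, adjusted p = 0.664). Without Tcf1-deficient replicate 2, 894 genes were called, and Casp8 passed with a log2 fold change of 0.78 (adjusted p = 0.0156). Without replicate 1, 16 genes were called, and Casp8 had a log2 fold change of 0.38 (adjusted p = 0.601). For Fadd the sign turned, from 0.09 to −0.25 without replicate 1. Casp9 (log2 fold change −0.04), Casp6 (0.04) and Xiap (0.05) were within 1 SE of 0. Apaf1 had 0.25 (SE 0.15, adjusted p = 0.695) and Casp2 −0.19 (SE 0.14, adjusted p = 0.742).

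Several list genes were also highest in replicate 1. Fasl, the ligand of Fas, had 6.07 and 1.79 CPM against 0.532 and 0.458 CPM in control (adjusted p = 0.422). Tnfrsf1b, the second TNF receptor, had 185 and 107 CPM against 76.7 and 81.5 CPM (adjusted p = 0.544). Birc3 had 49.2 and 25.0 CPM against 18.6 and 20.5 CPM (adjusted p = 0.613), and Fas 9.72 and 3.91 CPM against 3.96 and 5.23 CPM (adjusted p = 0.751). Casp4 had 2.73 and 0.541 CPM against 0.822 and 0.916 CPM (adjusted p = 0.791), and Casp1 8.79 and 6.66 CPM against 7.44 and 8.51 CPM (adjusted p = 0.977). The other genes with the smallest p in their lists were Faim, Cyld, Aven, Cycs, Birc6, Rock1 and Panx1, with log2 fold changes from −0.29 (Birc6) to 0.64 (Faim) and adjusted p from 0.565 to 0.716. Without Tcf1-deficient replicate 2, 13 list genes were called, all higher, and without replicate 1 none was. Beside the mature T cell genes given above, natural killer genes summed to 73.8 and 56.8 CPM and dendritic cell genes to 105 and 15.9 CPM in replicates 1 and 2. The natural killer sum exceeded the control range of 25.3 to 39.7 CPM in both libraries, with Nkg7 at 1485 and 1317 counts and the receptor gene Ncr1 at 0 counts in both. Their part in these values was not tested.

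The comparison of Tcf1-deficient with p45-deficient cells tests the difference between the 2 genotypes directly. None of the 8 genes passed, where 10.4% of all tested genes were called, 5.05% higher and 5.36% lower, and 1 of the 8, Xiap, had an unadjusted p under 0.05, as had 4030 of all tested genes (31.1%). Those were 654 genes higher and 694 lower, and with library totals 744 higher and 483 lower. Both Tcf1-deficient libraries lay below both p45-deficient libraries for Casp8, Fadd, Casp9, Casp2 and Xiap, 5 of 8, and above for Cflar, 1 of 8. The shares over all genes were 33.3% and 27.7%. Xiap had a log2 fold change of −0.32 (SE 0.12, 95% interval −0.60 to −0.05, adjusted p = 0.116). Casp9 had −0.45 (SE 0.20, adjusted p = 0.178), Fadd −0.47 (SE 0.26, adjusted p = 0.265) and Casp2 −0.28 (SE 0.14, adjusted p = 0.220). For Casp8 the difference was −0.33 (SE 0.17, 95% interval −0.72 to 0.06, adjusted p = 0.220), so the call of Casp8 against control in one mutant and not in the other is not shown to be a difference between them. Cflar had 0.30 (SE 0.19, adjusted p = 0.311), Casp6 0.15 (SE 0.20, adjusted p = 0.645) and Apaf1 −0.04 (SE 0.14, adjusted p = 0.892). Without Tcf1-deficient replicate 2, 2 of the 8 were called: Cflar higher (log2 fold change 0.51, adjusted p = 0.0438) and Casp2 lower (−0.47, adjusted p = 0.0246). With replicate 2 as the only Tcf1-deficient library these values were 0.09 and −0.06.

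Of the 68 list genes, 3 were called higher in Tcf1-deficient than in p45-deficient cells and 3 lower. That is 8.82% called, against 10.4% of all tested genes. Scaling by library totals made it 4 higher and 2 lower. Lower were Bid (2.10-fold), Birc5 (1.95-fold) and Faf1 (1.40-fold). Higher were Casp1 (3.25-fold), Tnfrsf1b (2.72-fold) and Dedd2 (1.73-fold). Of the 7 other settings, Faf1 was called in 2 (adjusted p up to 0.0900), Casp1 in 6 and the other 4 in 7. None of them was called without p45-deficient replicate 1 or without p45-deficient replicate 2, and 25 list genes were called without Tcf1-deficient replicate 2. Fas did not pass (log2 fold change −0.20, SE 0.43, adjusted p = 0.783), and among caspase substrates Lmnb1 (−0.31, adjusted p = 0.138) and Lmna (1.49, adjusted p = 0.138) had the smallest p. The 3 comparisons share libraries in pairs, so their values for a gene are not independent of each other. Of the marker lists, 5 of 8 genes of dividing cells and 2 of 6 DN3 genes were called lower here, and 1 of 4 natural killer genes and 2 of 9 handling genes higher. Their part was not tested.

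Across the 6 libraries the 8 genes did not vary as a unit. Of their 28 pairs 17 had a positive Pearson r of log2 CPM, with a median of 0.274 and a range of −0.796 to 0.922. Fadd and Casp9 (r = 0.922) and Casp8 and Apaf1 (r = 0.871) were the 2 pairs above 0.8. The lowest were Fadd with Casp6 (−0.796) and Cflar with Casp2 (−0.794). Cflar was highest and Casp2 lowest in Tcf1-deficient replicate 1, so this library alone weighs heavily in the latter. All genes of a library share its preparation and depth, and these values are descriptions over 6 points.

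The genes most like each member, among 8872 others with a mean of at least 10 CPM, were also named. They were Smchd1 (r = 0.996) and Cd27 (0.995) for Casp8, Erp29 (0.995) and Metrn (0.991) for Fadd, and Rapgef6 and Cnn2 (both 0.997) for Cflar. For the mitochondrial route they were Ctnnbl1 (0.998) and Eef1d (0.995) for Casp9 and Wdr44 (0.976) and Cd99l2 (0.974) for Apaf1. Casp2 went with Rprd1a (0.995) and Nop10 (0.994), Casp6 with Topors (0.989) and Vcpip1 (0.985), and Xiap with Vps29 and Prps1l3 (both 0.998). Cd27, a costimulatory receptor of the TNF receptor family, had 133 and 150 CPM in control, 219 and 213 CPM in p45-deficient and 202 and 175 CPM in Tcf1-deficient libraries, the same order of libraries as Casp8. Cnn2, like Cflar, was highest in Tcf1-deficient replicate 1 at 311 CPM and between 90.1 and 145 CPM elsewhere. Both genes were picked for their high r over the 6 libraries, so such likeness follows from the choice and is no separate result.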

How the data were processed

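RNA from sorted DN3 thymocytes was sequenced in 6 libraries, 2 per group, grouped by the genotype in their labels. The authors deposited unnormalised whole-number counts for each gene symbol. TopHat2, featureCounts 1.5.0-p3, DESeq2 3.4 and mm9 are named, without a role, per the submitters' processing notes. Which annotation and which strand setting applied is not given in the sources used here, and overlapping or antisense genes may share reads.

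The 12939 genes kept by filterByExpr were tested together in edgeR 4.0.16 (R 4.3.3), with TMM scaling, 1 mean per group over all 6 libraries (3 residual degrees of freedom), robust quasi-likelihood F tests, two-sided, and Benjamini-Hochberg adjustment within each comparison. Genes are called at an adjusted p below 0.05. SEs come from the F statistic and 95% intervals from the moderated degrees of freedom. The script was tested on simulated data. Counts per kilobase used exon lengths of GENCODE M21 (GRCm38), which may differ from the lengths the authors counted. Correlations used log2 CPM with a prior count of 2. Floors and counting errors cover counting only.

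The 8 genes, the 6 lists and the ratios were chosen with earlier results of these data known. Named genes are the 8, Tcf7, Fas, every called list gene, the 2 smallest p of a list with no call, and the 2 genes most like each member. Other list genes are given as counts, and markers as sums. Some genes of the lists are not reported here and were left out of the list counts. The alternatives were DESeq2 1.42.0, 3 other scalings, no filter, a replicate block, the 2 groups alone, and each library left out. Protein sequences were not used here.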

Additional observations from a re-analysis of the deposited data

How the results depend on the processing

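The rise of Casp8 in p45-deficient cells kept its direction in all 13 alternatives and its call in 9, and was lost only when a control or p45-deficient library was left out. With a library left out in turn, the 8 genes had 0 to 2 calls in p45-deficient against control, 0 to 1 in Tcf1-deficient against control and 0 to 2 in Tcf1-deficient against p45-deficient cells. List genes called ranged from 1 to 19, 0 to 13 and 0 to 25, and all genes from 258 to 3923, 0 to 894 and 105 to 3437. DESeq2 called 145 genes and 2 list genes in Tcf1-deficient against control, and 2440 and 16 against p45-deficient cells. With no filter 33 genes were called in the former, and 10 list genes in the latter. Fits of the 2 groups alone called 3907 genes and 18 list genes for p45-deficient against control, and 488 genes for Tcf1-deficient against p45-deficient cells. The cause of these shifts was not tested.

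Signs near 0 turned. For p45-deficient against control, Cflar had log2 fold changes of −0.036 with library totals and −0.00671 with the upper quartile, and Casp2 −0.016 with library totals. For Tcf1-deficient against p45-deficient cells Apaf1 had 0.00223 with RLE size factors, 0.020 with library totals, 0.0036 with the upper quartile and 0.013 with no filter. With single libraries left out, log2 fold changes for p45-deficient against control ran from −0.14 to 0.19 for Cflar and from −0.36 to 0.068 for Casp6. For Tcf1-deficient against control they ran from −0.25 to 0.35 for Fadd, −0.17 to 0.075 for Casp9, −0.22 to 0.27 for Casp6, −0.025 to 0.12 for Xiap, −0.26 to 0.13 for Casp1, −0.68 to 1.63 for Casp4 and −0.23 to 1.07 for Fas. For Tcf1-deficient against p45-deficient cells they ran from −0.17 to 0.10 for Apaf1, −0.11 to 0.42 for Casp6 and −0.95 to 0.30 for Fas. The cause was not tested.

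The replicate numbers are shared by the groups, but nothing ties equal numbers to 1 litter or day, and differences between replicates 1 and 2 correlated at −0.014, −0.050 and −0.029 across genes between the 3 pairs of groups. With the replicate block 1 of the 8 genes was called in p45-deficient against control (Casp8, adjusted p = 0.0216) and 0 in the other comparisons. List genes called went from 11 to 8, from 0 to 0 and from 6 to 6, and all genes from 2073 to 1613, from 0 to 0 and from 1348 to 920.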
